A study of Arabidopsis thaliana with 17 samples.

Results

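The comparison described here is between NRPD1-3xF_AAA-YPMF, a FLAG-tagged NRPD1 in which the CYC residues of the CYC-YPMF motif were changed to alanine, and NRPD1-3xF_WT, the same tagged protein with the motif intact. Its members were chosen by genotype and not by any measured value. They comprise 4 of the 17 samples of the series, 2 libraries of each genotype, and all 12,939 24 nt siRNA clusters of the deposited table. Both genotypes carry the nrpd1-3 null allele, and in both the transgene was expressed from the NRPD1 promoter, so that the tagged protein is the only full-length NRPD1 in either. The labels give the tissue as flowers. They do not say whether the replicates of a genotype came from separate transgenic lines, so the p-values measure only the spread between these libraries. The nrpd1-3_null mutant, which lacks the transgene, and Col-0_WT, which has its own NRPD1, are given beside the comparison where their levels bear on it, with 2 libraries each. NRPD1-3xF_CYC-AAAA, another tagged line in the nrpd1-3 background in which the YPMF residues are alanines, is given in a few places for the same reason, as is the clsy quad mutant (labelled clsy1234), which lacks all CLSY proteins. The question is how much of the 24 nt siRNA made with the tagged wild-type protein is still found when the CYC residues are alanines.

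NRPD1 is the largest subunit of RNA polymerase IV (Pol IV), a plant polymerase that transcribes transposons and other repeats. RDR2 makes its transcripts double-stranded, and DCL3 cuts them into 24 nt siRNAs. These guide the DNA methyltransferase DRM2 to matching loci, through Argonaute proteins and a second polymerase, Pol V, in the process of RNA-directed DNA methylation (RdDM). The CLSY proteins are SNF2-like factors that recruit Pol IV to its loci. Most miRNAs, in contrast, are made from Pol II transcripts by DCL1 and do not need Pol IV.

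The changed residues lie in the N-terminal part of NRPD1 (AT1G63020), on the minus strand of chromosome 1. In the RefSeq gene model on TAIR10.1, whose nuclear chromosomes have the coordinates of the TAIR10 build used by the authors, the coding sequence has 1453 codons. The CYC residues are codons 118, 120 and 121, in exon 6, and the YPMF residues are codons 127, 128, 130 and 132, in exon 7. The stretches are shown because the first holds the codons that distinguish the genotypes and the second those left intact in both. They are the reference sequence of the coding strand, 5′ to 3′, with the motif codons in capitals. The first stretch is chr1:23360501-23360539 and the second chr1:23360360-23360413.
NRPD1 CYC stretch: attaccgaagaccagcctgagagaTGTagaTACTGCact
NRPD1 YPMF stretch: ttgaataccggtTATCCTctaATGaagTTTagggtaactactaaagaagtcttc

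The 24 nt siRNAs were lost at nearly every cluster in NRPD1-3xF_AAA-YPMF. Levels are given in RPKM, the 24 nt reads of a cluster per kilobase of its length, scaled to the total of the library. The median cluster had 13.5 and 12.2 RPKM in the NRPD1-3xF_WT libraries, in the order of their replicate numbers, which is used throughout. It had 0.15 and 0.19 RPKM in NRPD1-3xF_AAA-YPMF, and 0 in both nrpd1-3_null libraries. Thus the variant was far below its tagged control and slightly above the null mutant, with no overlap between the ranges of these medians. On the log2(RPKM + 1) scale, the middle 50% of the clusters extended from 2.84 to 4.96 and from 2.70 to 4.84 in the NRPD1-3xF_WT libraries, and from 0.07 to 0.40 and from 0.10 to 0.50 in the NRPD1-3xF_AAA-YPMF libraries.

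**Figure D1:**
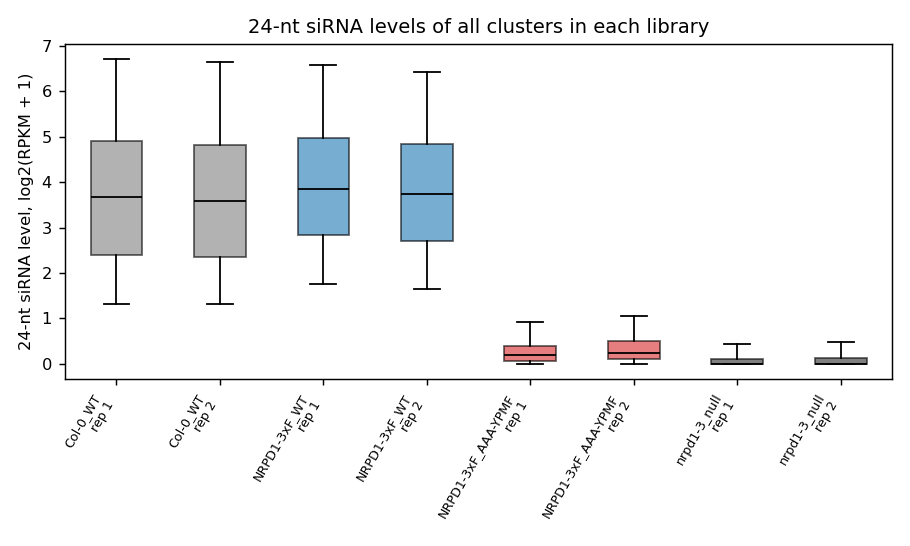
24 nt siRNA levels of the 12,939 clusters in each library, as log2(RPKM + 1). Lines in the boxes are medians, boxes span the quartiles, and whiskers run from the 5th to the 95th percentile. The NRPD1-3xF_AAA-YPMF boxes end at 0.40 and 0.50, below the lower edges of the NRPD1-3xF_WT boxes at 2.84 and 2.70.

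Over all clusters, NRPD1-3xF_AAA-YPMF differed from NRPD1-3xF_WT by a median log2 fold change of -3.50. It was -3.51 for replicate 1 and -3.46 for replicate 2 of the variant against the mean of the tagged control. The differences of 24 nt siRNA levels within a genotype were small beside this, with a median absolute log2 difference of 0.14 between the NRPD1-3xF_WT libraries and of 0.12 between the NRPD1-3xF_AAA-YPMF libraries. The log2(RPKM + 1) scale compresses differences at low levels, and the medians of the variant libraries were only 0.15 and 0.19 RPKM. The value of 0.12 therefore does not show that the variant replicates were as close as those of the tagged control. Of the 12,939 clusters, 12,633 were called lower (97.6%) and 10 higher (0.0773%), by limma on log2(RPKM + 1) with Benjamini-Hochberg adjustment over all clusters. A call needed a change of 1 or more on the log2 scale, in either direction, with an adjusted p below 0.01. Both NRPD1-3xF_AAA-YPMF libraries were below both NRPD1-3xF_WT libraries at 12,801 clusters (98.9%) and above both at 23 (0.178%). With 2 libraries per genotype, the smallest p that an exact permutation test of a single cluster can give is 0.33. When NRPD1-3xF_WT replicate 1 or replicate 2 was left out, 10,654 and 10,822 clusters were called lower.

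**Figure D2:**
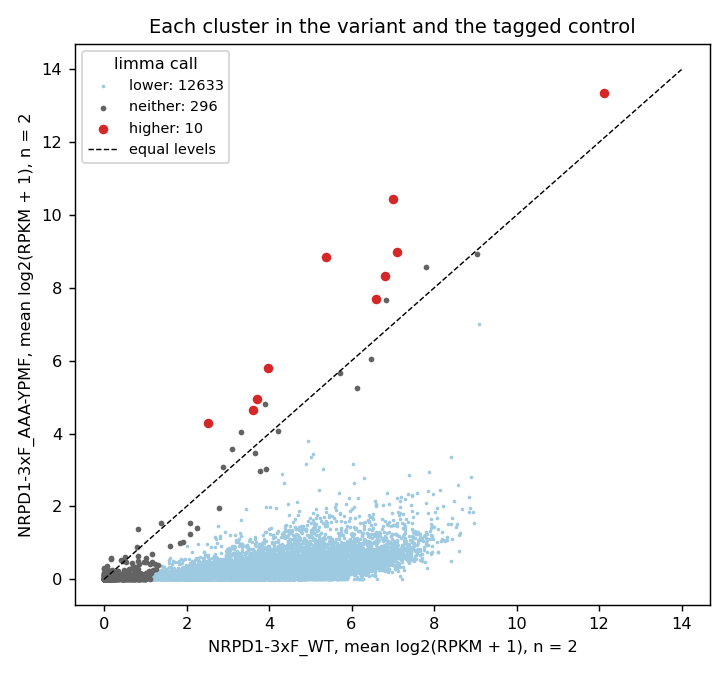
Mean log2(RPKM + 1) of each cluster in NRPD1-3xF_WT (x axis) and in NRPD1-3xF_AAA-YPMF (y axis), with 2 libraries each. Points are clusters, coloured by the limma call, and the dashed line marks equal levels. The 12,633 clusters called lower lie along the bottom, and the 10 called higher lie above the line.

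The clusters that were not called lower were mostly those with little siRNA to lose. Of 296 clusters called neither lower nor higher, 275 had at most 2 RPKM in NRPD1-3xF_WT, and 30 clusters were listed at 0 in both of its libraries. None of the 244 clusters with at most 1 RPKM in NRPD1-3xF_WT was called, where a log2 change of -1 is the largest fall that a pseudocount of 1 allows. Between 1 and 2 RPKM, 231 of 262 clusters were called lower. Above 10 RPKM, 7514 of 7534 were called lower, 11 were called neither and 9 higher. At 43 of the 296 clusters the mean was higher in NRPD1-3xF_AAA-YPMF than in NRPD1-3xF_WT.

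The 8 largest falls on the log2(RPKM + 1) scale were at clusters with high levels in NRPD1-3xF_WT. A fall on this scale cannot exceed the tagged level on it, so clusters with low levels could not rank among them. The largest fall was at merged_1_21223827 (chromosome 1, start 21223827), which lies in the protein-coding gene AT1G56630. Clusters are named by their chromosome and start, and the gene given is the one at or nearest to that start. The exceptions are clusters named by a miRNA gene within 100 bp or by a listed gene within 1000 bp, which need not be the nearest gene. The level of merged_1_21223827 was 384 and 302 RPKM in NRPD1-3xF_WT and 0.28 and 0.54 in NRPD1-3xF_AAA-YPMF. This is a log2 fold change of -7.93 (limma, SE 0.19, adjusted p = 3.42e-07), and the nrpd1-3_null libraries had 0 and 0.33 RPKM. At merged_3_10140622, in AT3G27400, the tagged control had 266 and 194 RPKM and the variant 0.34 and 0.16. Both variant libraries were below those of nrpd1-3_null there, which had 0.74 and 0.4 RPKM. At merged_5_17610236, which starts 508 bp from AGO10, an Argonaute gene with a role in shoot meristem maintenance, the levels were 281 and 261 RPKM in NRPD1-3xF_WT and 0.47 and 0.9 in the variant. The other 5 of the 8 largest falls had log2 fold changes from -7.82 to -7.33. Of these 5, merged_4_6275832, the cluster starting 1116 bp from the cytochrome c gene CYTC-2, had 384 and 396 RPKM in NRPD1-3xF_WT and 0.19 and 1.51 in NRPD1-3xF_AAA-YPMF. With NRPD1-3xF_WT replicate 1 left out its adjusted p was 0.0174 (limma), past the limit of 0.01, at a log2 fold change of -7.84, and without replicate 2 it was 0.0175 at -7.80. The same occurred with either of these libraries left out at merged_3_7502655, merged_4_7250427 and merged_1_24369236.

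The 10 clusters with the highest mean level in NRPD1-3xF_WT behaved in different ways. At 7 of them the variant kept between 0.397% and 1.27% of the tagged level. The most siRNA among these 7 was left at merged_2_1206413, 164 bp from AT2G03930, with 496 and 449 RPKM in NRPD1-3xF_WT, 6.11 and 5.92 in NRPD1-3xF_AAA-YPMF and 0.11 and 0.09 in nrpd1-3_null. Both variant libraries were thus above both null libraries and far below both tagged libraries. At merged_2_4965431, 1213 bp from the non-coding RNA gene AT2G05685, the variant had 3.78 and 3.79 RPKM, and both nrpd1-3_null libraries were listed at 0. The remaining 3 of the 10 stood apart and are described next.

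A partial loss was seen at merged_3_17728477, in the long non-coding RNA gene AT3G07855. It had 573 and 515 RPKM in NRPD1-3xF_WT and 119 and 135 in NRPD1-3xF_AAA-YPMF. This is a log2 fold change of -2.09 (limma, SE 0.14, adjusted p = 9.24e-06), with 23.4% of the tagged level left. The variant overlapped with nrpd1-3_null, which had 116 and 159 RPKM. Without NRPD1-3xF_WT replicate 1 the adjusted p at merged_3_17728477 was 0.0101 (limma), at a log2 fold change of -2.01. At merged_1_24720965, in the non-coding RNA gene AT1G09805, the levels were 540 and 508 RPKM in NRPD1-3xF_WT and 464 and 506 in NRPD1-3xF_AAA-YPMF, and the cluster was not called (log2 fold change -0.11, adjusted p = 0.388 from limma). Scaled to 21 nt reads, merged_1_24720965 was called lower, with a log2 difference of -1.07 and a limma adjusted p of 2.56e-06. Its nrpd1-3_null libraries were higher, at 853 and 1012 RPKM. The third of these clusters, at the miRNA gene MIR163, was called higher.

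All of the 10 clusters called higher in NRPD1-3xF_AAA-YPMF than in NRPD1-3xF_WT were also above both NRPD1-3xF_WT libraries in both nrpd1-3_null and both NRPD1-3xF_CYC-AAAA libraries. Of the 10, 5 started within 100 bp of an annotated miRNA gene (MIR163, MIR848, MIR869, MIR8121 and MIR8178). RPKM is relative to the reads of the library. When the libraries were scaled to their 21 nt reads instead, all 10 kept a log2 fold change above 0, but only 2 were still called. These were merged_2_16588018 at MIR8121 and merged_4_13295908, and the other 8 had log2 fold changes from 0.12 to 0.94. The count of clusters called higher was also 3 without NRPD1-3xF_WT replicate 1 and 4 without replicate 2.

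The largest increase was at merged_2_16588018, inside MIR8121. It had 40.2 and 41.9 RPKM in NRPD1-3xF_WT and 408 and 528 in NRPD1-3xF_AAA-YPMF, a log2 fold change of 3.47 (limma, SE 0.18, adjusted p = 2.03e-06). Scaled to 21 nt reads, the log2 fold change was 2.51. The levels of nrpd1-3_null were 649 and 718 RPKM and those of Col-0_WT were 87.1 and 91.7, so that Col-0_WT also lay above the tagged control. Without NRPD1-3xF_WT replicate 1 the adjusted p was 0.0126 at a log2 fold change of 3.44, and without replicate 2 it was 0.0122 at 3.50 (limma).

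A similar increase was found at merged_4_13295908, in the non-coding RNA gene AT4G26255. Its levels were 130 and 125 RPKM in NRPD1-3xF_WT and 1343 and 1455 in NRPD1-3xF_AAA-YPMF, a log2 fold change of 3.45 (limma, SE 0.12, adjusted p = 4.56e-07) and of 2.49 when scaled to 21 nt reads. The nrpd1-3_null libraries had 1456 and 2730 RPKM.

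The cluster with the highest level of all was merged_1_24884060, which starts 6 bp from the miRNA gene MIR163. It had 4301 and 4534 RPKM in NRPD1-3xF_WT, 10633 and 10391 in NRPD1-3xF_AAA-YPMF, and 14422 and 16969 in nrpd1-3_null. The 3 genotypes did not overlap, and the variant was between the others. The log2 fold change against NRPD1-3xF_WT was 1.25 (limma, SE 0.06, adjusted p = 1.79e-06). It was 0.29 (adjusted p = 0.132) when scaled to 21 nt reads, and the cluster was then not called. This cluster alone held 57.7% and 54.2% of the RPKM summed over all clusters in the NRPD1-3xF_AAA-YPMF libraries, against 1.26% and 1.44% in those of NRPD1-3xF_WT. The sum over all clusters in the variant was 5.61% and 5.83% of the mean tagged sum. Leaving out merged_1_24884060, a choice made after seeing the data, it was 2.41% and 2.71%.

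The other 7 clusters called higher had smaller changes. At merged_5_4479376, within 100 bp of MIR848, NRPD1-3xF_WT had 118 and 156 RPKM and NRPD1-3xF_AAA-YPMF 538 and 484, a log2 fold change of 1.90. At merged_2_818861, in the long non-coding RNA gene AT2G04345, the levels were 14.9 and 14.4 RPKM in the tagged control and 55.9 and 54.5 in the variant, a log2 fold change of 1.84. At merged_5_15891592, inside MIR869, they were 4.84 and 4.68 RPKM and 19.4 and 18.1, a log2 fold change of 1.78. At these 3 clusters the groups were well separated, and the last was not called with Col-0_WT as the reference (log2 fold change 0.99). The remaining 4 were merged_5_22322586 (251 bp from AT5G55010), merged_4_18087176 (at MIR8178), merged_5_17230109 (in AT5G42950) and merged_4_1873241 (383 bp from AT4G03940), with log2 fold changes of 1.53, 1.24, 1.10 and 1.03. The last pair was not called with a pseudocount of 0.1. Without NRPD1-3xF_WT replicate 1 the clusters at MIR848, AT2G04345 and MIR869 had adjusted p-values of 0.0101, 0.0127 and 0.0131 (limma), at log2 fold changes of 1.70, 1.86 and 1.80, and those at MIR8178, AT5G42950 and AT4G03940 had 0.0291, 0.0634 and 0.0627. Without replicate 2, all of these but MIR848 also missed the limit of 0.01, with adjusted p-values from 0.0131 to 0.107. Of the variant, leaving out replicate 1 gave a log2 fold change of 0.98 at AT5G42950, and leaving out replicate 2 gave 0.86 at AT4G03940, both under the limit of 1.

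Because 5 of 10 increases were at miRNA genes, all clusters that start within 100 bp of an annotated miRNA gene are given next. There were 20, each at a different gene, and these are few of the clusters in the table. Of these, 13 were called lower, 5 higher and 2 neither, where 97.6% of all clusters were called lower and 0.0773% higher. The median log2 fold change was -3.10, against -3.50 over all clusters. The genes annotate 22 mature miRNAs, of which only miR163 and miR8121 are 24 nt long, and 3 of 6 at the clusters called higher are 21 nt. Only 24 nt reads were counted, so an annotated miRNA of another length is not itself what was measured. Mature sequences are shown for the miRNA genes at clusters not called lower, to let their lengths be compared. That of MIR397a is shown as an example from a cluster called lower. All of them are the reference sequence of TAIR10.1 at the RefSeq annotation, written with T, 5′ to 3′. The seed (bases 2 to 8) is in capitals, and no 2 of the 22 share a seed.
miR163: tTGAAGAGgacttggaacttcgat
miR8121: aAAGTATAatggtttagtggtttg
miR848: tGACATGGgactgcctaagcta
miR869.1: aTTGGTTCaattctggtgttg
miR869.2: tCTGGTGTtgagatagttgac
miR8178: tAACAGAGtaattgtacagtg
miR1887: tACTAAGTagagtctaagaga
miR839-5p: tACCAACCtttcatcgttccc
miR397a: tCATTGAGtgcagcgttgatg

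In genome coordinates, miR163 is at chr1:24884359-24884382 on the plus strand, 299 bases past the start of its cluster, and miR8121 is at chr2:16588077-16588100 on the minus strand, 59 bases past the start of its cluster. At the 13 clusters called lower, the variant kept between 0.433% and 13.8% of the tagged level, with a median of 2.11%. At MIR397a, which targets laccase transcripts, merged_4_2625960 had 41.1 and 41.7 RPKM in NRPD1-3xF_WT and 0.24 and 0.23 in NRPD1-3xF_AAA-YPMF. The cluster with the highest level among the 13 was merged_5_16409772 at MIR5659, with 99.0 and 95.0 RPKM in the tagged control and 0.87 and 2.09 in the variant. It fell by 5.35 on the log2 scale, the largest fall of the 13. The smallest was at MIR5628, where merged_5_17985782 had 4.41 and 3.59 RPKM against 0.34 and 0.76. Without NRPD1-3xF_WT replicate 1 the adjusted p was 0.0174 at MIR5659 and 0.0426 at MIR5628, and without replicate 2 it was 0.017 and 0.0342 (limma), so that both missed the limit of 0.01. The same happened at MIR5641 and MIR776, with adjusted p-values of 0.018 and 0.0152 without replicate 1 and of 0.0179 and 0.0163 without replicate 2.

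The clusters at MIR1887 and MIR839 were called neither way. At MIR1887, merged_4_11370268 had 208 and 238 RPKM in NRPD1-3xF_WT and 377 and 384 in NRPD1-3xF_AAA-YPMF, so that the groups did not overlap, but the log2 fold change of 0.77 was below the limit of 1 (adjusted p = 0.00141 from limma). With Col-0_WT as the reference, at 170 and 149 RPKM, merged_4_11370268 was called higher, at a log2 fold change of 1.25. At MIR839, merged_1_25278928 had 79.2 and 97.6 RPKM in the tagged control and 66.0 and 65.5 in the variant (log2 fold change -0.41, adjusted p = 0.0504 from limma). Its Col-0_WT libraries were higher, at 196 and 205 RPKM, and it was called lower with Col-0_WT as the reference, at a log2 fold change of -1.59. Scaled to 21 nt reads it was also called lower, at -1.35.

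**Figure D3:**
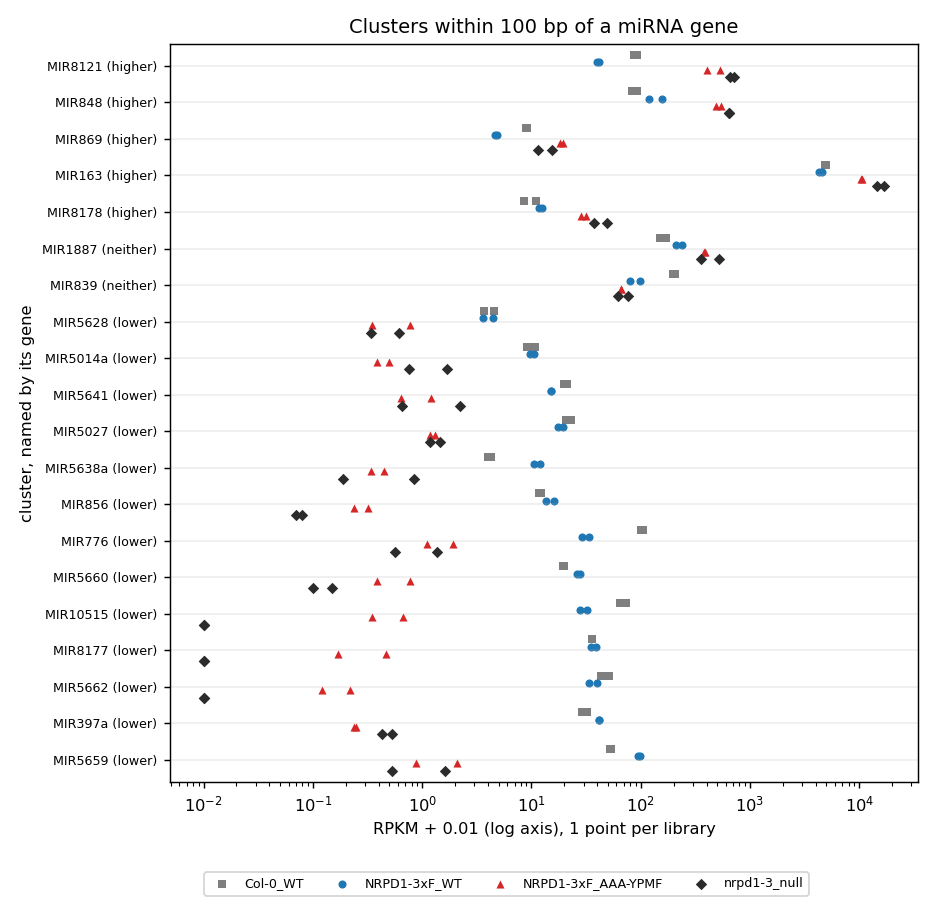
RPKM + 0.01, on a log axis, of the 20 clusters that start within 100 bp of a miRNA gene. Each point is a library of Col-0_WT, NRPD1-3xF_WT, NRPD1-3xF_AAA-YPMF or nrpd1-3_null, and the limma call against NRPD1-3xF_WT is given beside the gene. At the 5 genes called higher the triangles of the variant lie to the right of the circles of the tagged control, and at the 13 called lower they lie to the left.

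Clusters with the largest share of siRNA left were also examined among those with at least 10 RPKM in NRPD1-3xF_WT that were not called higher. The 8 with most left had between 74.4% and 194% of the tagged level and were called neither way. They include the clusters at AT1G09805, MIR1887 and MIR839 described above. At merged_3_16157970, 435 bp from AT3G44570, NRPD1-3xF_WT had 112 RPKM in both libraries and NRPD1-3xF_AAA-YPMF 199 and 204. This cluster was at 227 and 269 RPKM in nrpd1-3_null, at 39.7 and 38.7 in Col-0_WT and at 2.21 in both libraries of the clsy quad mutant. It was thus high in all 3 genotypes with the nrpd1-3 allele shown, and the log2 fold change of 0.84 between the variant and the tagged control was below the limit. With Col-0_WT as the reference, merged_3_16157970 was called higher, at a log2 fold change of 2.33. At merged_1_1727121, in AT1G05780, the tagged control had 13.0 and 15.1 RPKM and the variant 27.5 and 27.0. The nrpd1-3_null libraries had 33.3 and 38.8 RPKM there. At merged_5_16715937, 55 bp from AT5G41763, the variant had 46.4 and 54.1 RPKM, which overlapped with 51.8 and 52.5 in the tagged control.

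The siRNA left in the variant was related to the level in the tagged control. Over the 12,909 clusters with a level above 0 in NRPD1-3xF_WT, the median cluster kept 1.27% in the mean of the NRPD1-3xF_AAA-YPMF libraries, 1.04% in replicate 1 and 1.31% in replicate 2, against 0% in both nrpd1-3_null libraries. When the clusters were divided into deciles by their mean NRPD1-3xF_WT level, the share left was 1.47% and 1.80% in the lowest decile, with a median of 2.29 RPKM in the tagged control. It was 1.70% and 1.85% in decile 3, and 0.476% and 0.678% in the highest, with a median of 89.6 RPKM. The level itself went the other way, from 0.04 RPKM in both variant libraries in the lowest decile to 0.48 and 0.68 in the highest. In both variant libraries the share was higher in decile 3 than in the lowest decile and fell from decile 3 to the highest. The nrpd1-3_null libraries were at medians of 0 in the lowest decile and at 0.08 and 0.1 RPKM in the highest. No test was made of this trend across clusters, which are not independent, and the deciles were formed by the tagged level that is also the denominator of the share.

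**Figure D4:**
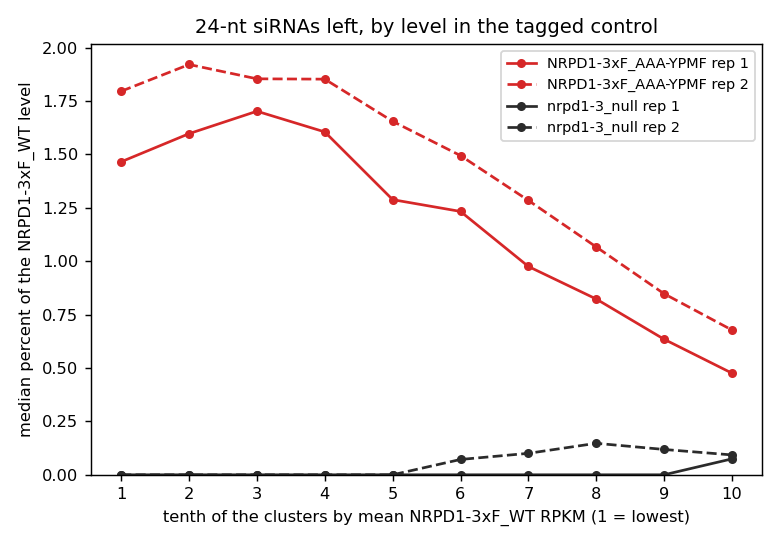
Median percent of the NRPD1-3xF_WT level found in each library of NRPD1-3xF_AAA-YPMF and nrpd1-3_null, for the clusters in deciles of mean NRPD1-3xF_WT RPKM. Lines join the deciles of 1 library. The variant libraries are at 1.47% and 1.80% in the lowest decile, at 1.70% and 1.85% in decile 3 and at 0.476% and 0.678% in the highest, and the null libraries stay at or under 0.147%.

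Across the 7537 clusters with at least 10 RPKM in NRPD1-3xF_WT, the level in NRPD1-3xF_AAA-YPMF correlated with that in NRPD1-3xF_WT with a Spearman's rho of 0.46 and with that in NRPD1-3xF_CYC-AAAA with a rho of 0.55. The rho was 0.42 with Col-0_WT, 0.43 with the clsy quad mutant and 0.41 with nrpd1-3_null. Over all clusters it was 0.62 with NRPD1-3xF_WT and 0.60 with NRPD1-3xF_CYC-AAAA, so that the order of these was not the same. The 2 NRPD1-3xF_AAA-YPMF libraries correlated with each other with a rho of 0.57 over the 7537 clusters. These are descriptions across clusters of the same libraries, and clusters in repeats can share reads. Replicate 2 of the variant was above replicate 1 at 6836 clusters, below it at 4517 and equal at 1586, with 2024 clusters listed at 0 in replicate 2 and 2650 in replicate 1. The part of depth in this difference was not tested.

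Of the 12,909 clusters with a level above 0 in NRPD1-3xF_WT, at least 10% of that level was left at 259 (2.01%). At least 50% was left at 68 (0.527%). Of the 259, 167 had under 5 RPKM in NRPD1-3xF_WT. Both variant libraries had at least 1 RPKM at 393 of all 12,939 clusters, and 363 of the 393 were called lower than NRPD1-3xF_WT. Both nrpd1-3_null libraries had at least 1 RPKM at 98 clusters, and 85 clusters met this in both genotypes. At 57 clusters, both variant libraries had at least 1 RPKM and both null libraries under 0.1.

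A direct test between NRPD1-3xF_AAA-YPMF and nrpd1-3_null called 0 clusters (0%) in either direction (limma, smallest adjusted p = 0.0238). Both variant libraries were under 1 RPKM at 12,046 of the 12,939 clusters. With a pseudocount of 1, a log2 change of 1 above the null cannot be reached there. In the same way, no cluster with both null libraries under 1 RPKM can be called lower. The count of 0 therefore does not show that the variant and the null mutant were alike. At an unadjusted p under 0.05, the variant was higher at 4678 clusters and lower at 62. With 1 fit over all 12 libraries of the table, which shares the spread of all genotypes, 223 of the 12,939 clusters were called higher and 4 lower. The count thus depended on how the spread was estimated. At merged_2_1206413, whose variant and null libraries are given above, the log2 fold change against nrpd1-3_null was 2.67 (adjusted p = 0.0238 from limma).

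The loss was found at clusters inside genes, near them and far from them. Of 1342 clusters starting in a protein-coding gene, 1286 (95.8%) were called lower, and the median share left was 1.23%. Of 1722 in a pseudogene, a class that in this annotation includes most transposon genes, 1711 (99.4%) were called lower, with a median of 1.64% left of a lower tagged level of 5.25 RPKM. Of 6315 outside genes but within 1 kb of 1, 6152 (97.4%) were called lower, and of 3357 farther away 3303 (98.4%), with a median of 1.20% and 1.19% left. These shares are close to the 97.6% over all clusters. The share was lower for 146 clusters in non-coding RNA genes other than miRNA genes, of which 137 (93.8%) were called lower and 2 higher. A median of 1.51% was left there. By chromosome, between 97.1% and 98.1% of the clusters of the 5 nuclear chromosomes were called lower. On the mitochondrial genome (37 clusters) it was 31, and a median of 5.47% was left there, but the tagged level was only 2.66 RPKM and the nrpd1-3_null libraries kept a median of 4.29% and 4.77%.

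Genes of the RdDM pathway itself are flanked by siRNA clusters in some cases. Of 19 pathway genes, 8 had a cluster that started in the gene or within 1000 bp of it, 1 cluster each. All 8 clusters were called lower. The highest was upstream of SUVH9, which encodes a protein that recruits Pol V to methylated DNA. Its cluster, merged_4_7827881, had 155 and 150 RPKM in NRPD1-3xF_WT and 0.28 and 0.13 in NRPD1-3xF_AAA-YPMF, with both nrpd1-3_null libraries listed at 0. It fell by 7.00 on the log2 scale, and 0.134% was left. The first 100 bases from its start are shown as an example of a locus whose siRNAs were lost (chr4:7827881-7827980, plus strand, reference sequence of TAIR10.1).
merged_4_7827881: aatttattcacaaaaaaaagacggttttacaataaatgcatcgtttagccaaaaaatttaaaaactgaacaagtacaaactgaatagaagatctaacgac

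The clusters at CLSY genes also fell. The one upstream of CLSY4 (merged_3_8835922) had 26.0 and 22.8 RPKM in the tagged control and 0.31 and 0.23 in the variant. The one downstream of CLSY3 (merged_1_1617532) had 20.6 and 16.3 RPKM and then 0 and 0.29. Upstream of CLSY1 (merged_3_14761494) more was left than at any other pathway gene, 8.76%, with 8.59 and 8.07 RPKM in NRPD1-3xF_WT, 0.65 and 0.81 in the variant and 0.2 and 0.19 in nrpd1-3_null. The variant and the tagged control did not overlap at any of these 3 clusters.

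The remaining pathway genes with a cluster were NRPE1, NRPD2, RDR2 and DCL3. Upstream of NRPE1, which encodes the largest subunit of Pol V, merged_2_16714017 had 20.4 and 16.6 RPKM in NRPD1-3xF_WT and 0.33 and 0 in NRPD1-3xF_AAA-YPMF. Upstream of DCL3, merged_3_15752744 had 12.0 and 11.4 RPKM and then 0 and 0.09. Downstream of RDR2, merged_4_6784693 had 8.73 and 7.16 RPKM and then 0 and 0.07. Upstream of NRPD2, the second subunit of both polymerases, merged_3_8574464 had 2.33 and 2.19 RPKM in the tagged control and 0 and 0.11 in the variant. At this cluster Col-0_WT had 95.4 and 85.7 RPKM, so that most of its siRNA was missing from the tagged control as well. Col-0_WT was also above the tagged control at the clusters of DCL3 (32.0 and 28.3 RPKM) and CLSY1 (19.7 and 18.9 RPKM). It was below the tagged control at those of NRPE1, RDR2 and CLSY3 and overlapped with it at those of CLSY4 and SUVH9. Without NRPD1-3xF_WT replicate 1 the adjusted p was past 0.01 at the clusters of NRPE1 (0.0118), CLSY3 (0.0102) and NRPD2 (0.0102), at log2 fold changes of -3.93, -3.93 and -1.60 (limma). Without replicate 2 it was 0.0107 at NRPE1.

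Of 9 known targets of RdDM, 4 had a cluster within the same distance, and all 4 clusters were called lower. Upstream of FWA, a homeobox gene silenced through repeats in its promoter, merged_4_13038163 had 19.8 and 17.9 RPKM in NRPD1-3xF_WT and 0 and 0.29 in NRPD1-3xF_AAA-YPMF. At MEA, an imprinted Polycomb gene, merged_1_549461 had 9.26 and 9.46 RPKM and then 0.03 and 0.09. More was left upstream of QQS (merged_3_12348810), with 9.27 and 7.96 RPKM in the tagged control, 0.67 and 0.48 in the variant and 0 in both nrpd1-3_null libraries. Upstream of the imprinted homeobox gene HDG3, merged_2_13740046 had 5.51 and 4.78 RPKM and then 0.19 and 0.9. That cluster was not called with a pseudocount of 0.1 or with Col-0_WT as the reference, where its log2 fold changes were -3.28 and -0.98, and its adjusted p was 0.0713 without NRPD1-3xF_WT replicate 1 and 0.0626 without replicate 2 (limma).

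ONSEN is a heat-activated Copia retrotransposon that RdDM represses in Arabidopsis. All 8 listed copies had clusters within 1000 bp, 11 in all, and all 11 were called lower. They kept between 0.489% and 1.90% of the tagged level, with a median log2 fold change of -3.80. The copies are nearly identical, and reads that fit several of them were placed by the mapping program, so that their values are not independent. At the copy AT3G61330, the cluster inside (merged_3_22696745) had 14.1 and 12.4 RPKM in NRPD1-3xF_WT, 0.08 and 0.15 in NRPD1-3xF_AAA-YPMF and 0.02 and 0.01 in nrpd1-3_null. The cluster on its downstream side (merged_3_22695532) had 28.3 and 24.9 RPKM in the tagged control and 0.18 and 0.08 in the variant. At the copy AT1G48710, merged_1_18013226 had 17.5 and 15.8 RPKM and then 0.26 and 0.28. Each of the 11 clusters was under 1 RPKM in both variant libraries.

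Trans-acting siRNA genes give mostly 21 nt siRNAs by a pathway without Pol IV. Of 8 such genes only TAS3C had a cluster, merged_5_23393090, which started 915 bp from the gene. It had 165 and 169 RPKM in NRPD1-3xF_WT and 1.57 and 1.0 in NRPD1-3xF_AAA-YPMF, and was called lower with 0.768% left. Across the 4 lists, all 24 clusters were called lower, beside 97.6% of all clusters.

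**Figure D5:**
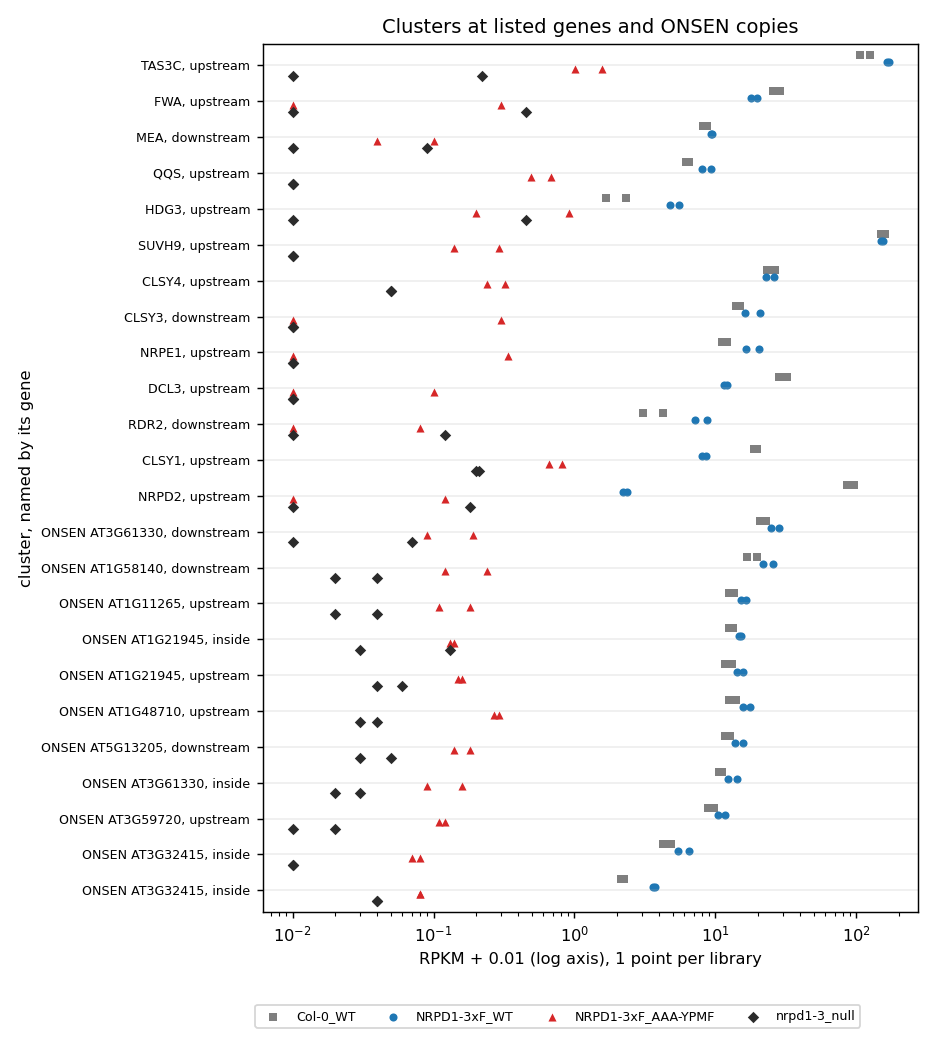
RPKM + 0.01, on a log axis, of the clusters within 1000 bp of the listed RdDM pathway genes, RdDM targets, ONSEN copies and TAS3C. Each point is a library of Col-0_WT, NRPD1-3xF_WT, NRPD1-3xF_AAA-YPMF or nrpd1-3_null, and a value at the left edge is listed at 0. The variant lies left of the tagged control at every cluster shown, at no more than 1.57 RPKM.

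Most clusters were called lower with either wild-type reference. Against Col-0_WT, 12,594 clusters were lower in NRPD1-3xF_AAA-YPMF (97.3%), and 12,351 were lower against both references, which is 97.8% of the calls against NRPD1-3xF_WT and 98.1% of those against Col-0_WT. Both comparisons use the same variant libraries. Higher than Col-0_WT were 11 clusters (0.085%), 9 of which were among the 10 called higher than NRPD1-3xF_WT.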

How the data were processed

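Small RNA libraries from flowers (TRIzol RNA, QIAseq miRNA kit) were processed by the authors with cutadapt v1.18, ShortStack v3.8.5 on TAIR10 allowing 1 mismatch, bamtools v2.5.1 and HOMER v4.10. The deposited values are RPKM of 24 nt reads per cluster for 12 libraries, scaled by the authors; replicates were not pooled. Read counts and cluster lengths were not used here, so the reads behind each value are unknown and precision is limited by 2 libraries per genotype. The smallest value above 0 in NRPD1-3xF_AAA-YPMF was 0.01 RPKM. The other 5 samples have no column in this table and were not analysed here.

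Values were taken to log2(RPKM + 1) and fitted with limma 3.58.1 in R 4.3.3 (eBayes with trend) on the 4 libraries compared, with Benjamini-Hochberg adjustment over all 12,939 clusters. A fold change on this scale understates changes at low levels. Calls needed a log2 change of 1 or more in size with an adjusted p below 0.01, limits that the authors also used. The calling was tested on simulated data in which both groups had the spread of the NRPD1-3xF_WT libraries. The simulation therefore does not cover the spread of variant libraries with many values near 0. Named clusters were the 10 highest in each genotype, the 8 largest falls, all increases up to 20, the 8 with most left at 10 RPKM or more, and those by miRNA genes (100 bp) or listed genes (1000 bp). Clusters and lists were chosen with earlier results of these data known. Annotation and sequences are RefSeq TAIR10.1; chromosome lengths contain all nuclear cluster starts. Tables were made in Python 3.11.15. Alternatives were a pseudocount of 0.1, a mean of at least 1 RPKM, the replicate number as a block, 1 fit over 12 libraries, an adjusted p under 0.05, no trend, scaling to 21 nt reads from the study's read summary, Col-0_WT as the reference and each library left out.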

Additional observations from a re-analysis of the deposited data

How the results depend on the processing

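The count of clusters called lower in NRPD1-3xF_AAA-YPMF than in NRPD1-3xF_WT was between 10,654 and 12,661 under all alternatives run, and no named cluster that was called changed direction. The cause of the values below was not tested. With the libraries scaled to 21 nt reads, 2 clusters were called higher, the median log2 fold change was -3.62, a shift of the median from -3.50, the summed RPKM was 2.93% of NRPD1-3xF_WT, the median share left 0.65%, and at least 10% and 50% were left at 128 and 40 clusters. With Col-0_WT as the reference, these were a median of -3.31, 5.27%, 1.58%, 420 and 30. With a mean of at least 1 RPKM, which tests fewer clusters, the median was -3.56 and the counts were 153 and 28. With a pseudocount of 0.1 the median was -5.48. Leaving out the highest 1% of clusters gave a sum of 1.37%, and leaving out merged_1_24884060, chosen after seeing the data, 2.56%. With each library of the comparison left out, clusters called higher ranged from 3 to 9, the median from -3.56 to -3.43, the sum from 5.49% to 5.98% and the median share left from 1.04% to 1.34%. Against nrpd1-3_null, clusters called higher and lower were 223 and 4 with 1 fit over 12 libraries, 87 and 3 with a mean of at least 1 RPKM and 154 and 2 at an adjusted p under 0.05, and leaving out each library gave 0 to 140 higher and 0 lower. In the comparison with nrpd1-3_null, the filter of at least 1 RPKM left 246 clusters to test. Its counts of 87 and 3 are out of these 246, and the counts of the other settings are out of 12,939. The replicate numbers share no stated batch. The deviations of replicate 1 from replicate 2 correlated with r = -0.001 between the variant and the tagged control across clusters. With the replicate number as a block, 12,634 clusters were called lower and 10 higher, and against nrpd1-3_null 0 and 0. Of the 70 named clusters, 22 were no longer called without NRPD1-3xF_WT replicate 1 and 18 without replicate 2, with the same direction. Values near 0 limit what can be said of differences between the variant and the null mutant.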
